A study of Mus musculus with 6 samples.

Results

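The genes described here are 10 neighbours of Zeb1 on mouse chromosome 18: Svil, Colec12, Abhd3, Rbbp8, Cables1, Riok3, Npc1, Lama3, Osbpl1a and Psma8. They were picked by symbol from the 187 genes of the deposited table that lie within 20 Mb of Zeb1, out of 48709 genes in all. The table holds RNA-seq counts of peritoneal macrophages sorted as F4/80+ CD11b+ from 3 Zeb1 (+/-) libraries and 3 wild-type libraries. Every library came from a pool of 2 untreated mice aged 6 to 8 weeks, and the labels give the strain of both genotypes as C57BL/6. Zeb1 (+/-) mice are heterozygous in every cell, not in macrophages alone. How the mutant allele was made, on which strain and through how many backcrosses, is not given in the sources used here.

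The 10 genes share a stretch of chromosome rather than a pathway. DNA that lies close to a targeted gene is inherited together with the targeted allele, because recombination seldom separates close loci, and repeated backcrossing shortens the linked stretch only slowly. ZEB1 itself is a DNA-binding protein with zinc fingers that recognises E-boxes and is best known for switching off epithelial genes. A difference tied to the dose of Zeb1 and one tied to DNA linked to the mutant allele go with the same libraries, so in this design they cannot be told apart.

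Total counts were 17859872, 42165006 and 33650529 in Zeb1 (+/-) replicates 1, 2 and 3, and 33358835, 28073386 and 18574049 in wild-type replicates 1, 2 and 3. Levels are given as CPM, counts scaled to a common library size by TMM. By total counts alone, without TMM, 1 CPM stood for 17.9 to 42.2 counts. Small structural RNAs, scaled by total counts alone, summed to 43.6, 45.5 and 44.3 CPM in the Zeb1 (+/-) libraries. In the wild-type libraries they summed to 4.14, 8.69 and 42.2 CPM, which sets wild-type replicates 1 and 2 apart. B cell marker genes (10 genes, 9 of them tested) summed to 83.2 to 113 CPM in Zeb1 (+/-) and to 136 to 272 CPM in wild-type libraries. The 6 genes for macrophages and the sort summed to 45420 to 61747 CPM in Zeb1 (+/-) and to 44169 to 62340 CPM in wild-type. Beside the fit on genotype alone, 2 fits are quoted for some genes, and values of other genes also differed. These fits hold an added term, for the structural-RNA split or for the average log2 CPM of B cell markers. Both terms overlap with genotype. The B cell average was 2.33 to 2.78 in Zeb1 (+/-) and 3.11 to 4.06 in wild-type libraries, and the split sets only wild-type libraries apart. A call can thus be lost in these fits while the value changes little. In bulk RNA, fewer cells of a type and less RNA per cell cannot be told apart.

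Zeb1 (ENSMUSG00000024238.13; chromosome 18, 5591860 to 5775467 on the plus strand of GRCm38) stood at 3.85, 3.45 and 3.62 CPM in Zeb1 (+/-) replicates 1, 2 and 3 and at 5.44, 7.56 and 7.22 CPM in wild-type replicates 1, 2 and 3. The Zeb1 (+/-) mean was 54.0% of the wild-type mean, and the groups did not overlap. On the log2 scale the ratio of Zeb1 (+/-) to wild-type, used for all fold changes that follow, was −0.89 ± 0.16 (SE). Its adjusted p in the edgeR quasi-likelihood fit was 0.0522, which missed the threshold of 0.05, with a range of 0.00094 to 0.25 over 13 other settings.

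The measured values had a part in the choice of the 10 genes. All 10 are among the 13 tested genes of the 20 Mb window with the smallest unadjusted p of this same contrast. Riok3 was the last of them (log2 fold change 0.21, unadjusted p = 0.0117 in the edgeR fit), and 3110002H16Rik the first gene after it that was left out (−0.21, unadjusted p = 0.0119). The genes passed over among the first 13 were Gata6, the long non-coding RNA gene 1010001N08Rik and Celf4. The genotype differences of the 10 are therefore given as descriptions, without a test.

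In Zeb1 (+/-) macrophages 7 of the 10 genes stood higher and 3 stood lower than in wild-type macrophages. Cables1 was 3.28 times and Colec12 1.88 times the wild-type level, while Psma8 and Abhd3 were 1.82 and 1.80 times that level. Lama3, Osbpl1a and Riok3 were at 1.35, 1.30 and 1.16 times, and Svil, Npc1 and Rbbp8 at 83.7%, 82.2% and 77.3% of it. Only Cables1 and Colec12 of the 10 were among the 76 genes past an adjusted p of 0.05 of 12940 tested by the edgeR quasi-likelihood method, where 0.587% of all tested genes were called, 0.155% higher and 0.433% lower. In all 10 genes the 3 Zeb1 (+/-) values lay on one side of the 3 wild-type values, as they did in 9.6% of all tested genes on the higher side and 10.3% on the lower side. Because the genes were chosen from this contrast, neither count supports anything about them.

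**Figure D1:**
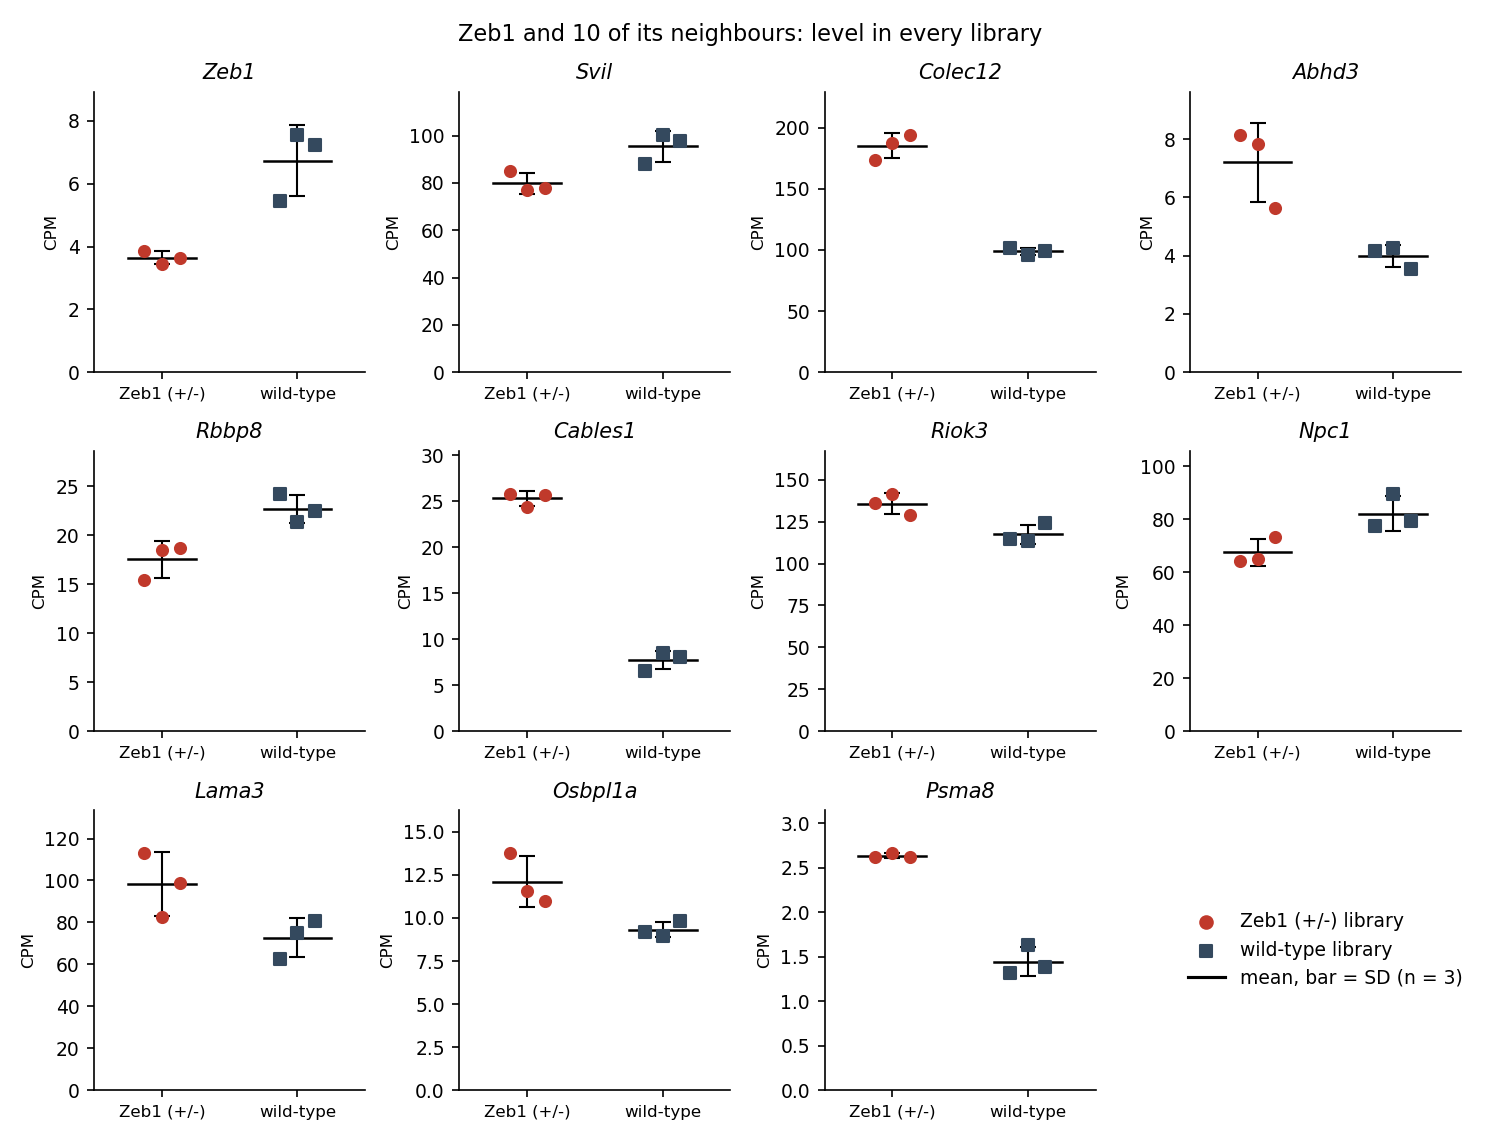
Level of Zeb1 and its 10 neighbours in every library, in CPM on axes that start at 0, with 1 panel per gene in chromosome order; circles are Zeb1 (+/-) libraries, squares wild-type libraries, and lines and bars the mean and SD (n = 3). The groups are separate in every panel, widest for Cables1 (24.4 to 25.8 CPM in Zeb1 (+/-), 6.58 to 8.45 CPM in wild-type) and Colec12 (174 to 194 CPM in Zeb1 (+/-), 95.8 to 102 CPM in wild-type).

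Cables1 and Rbbp8 lie next to each other and differed from wild-type in opposite directions. Cables1 (ENSMUSG00000040957.14; 11839220 to 11945630, plus strand) encodes an adaptor that links cyclin-dependent kinases such as CDK2 and CDK5 to the tyrosine kinases that modify them. It was at 25.8, 24.4 and 25.6 CPM in Zeb1 (+/-) replicates 1, 2 and 3 and at 6.58, 8.45 and 8.07 CPM in wild-type replicates 1, 2 and 3. The lowest Zeb1 (+/-) library stood 15.95 CPM above the highest wild-type library, and the Zeb1 (+/-) libraries were the tighter group (coefficient of variation 3.02%, against 12.8% in wild-type). The log2 fold change was 1.72 ± 0.10 (SE), the largest in size of the 64 tested genes in the window. On the opposite strand the long non-coding RNA gene Gm6277 shares 1314 exon bases with Cables1, and it was listed with 8, 20 and 5 counts in Zeb1 (+/-) and 5, 4 and 3 counts in wild-type libraries. These numbers compare with 462, 1033 and 842 counts of Cables1 in the Zeb1 (+/-) libraries and 219, 238 and 152 in the wild-type libraries.

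Rbbp8 (ENSMUSG00000041238.15; 11633276 to 11745221, plus strand) encodes CtIP, which starts the trimming of broken DNA ends for repair by recombination. Its 3' end lies 94.0 kb before Cables1. It stood at 15.4, 18.5 and 18.7 CPM in Zeb1 (+/-) and at 24.2, 21.4 and 22.5 CPM in wild-type replicates 1, 2 and 3, with a log2 fold change of −0.36 ± 0.09 (SE). Zeb1 (+/-) replicate 1 was the lowest of the 6 libraries. On its other side, 548 kb away, lies Gata6, the transcription factor that sets the identity of resident peritoneal macrophages. Gata6 averaged 127 ± 3.31 CPM in Zeb1 (+/-) and 103 ± 8.83 CPM in wild-type (SD, n = 3 each), a log2 fold change of 0.31 that did not pass (edgeR adjusted p = 0.115). It was 0.46 in the fit with the structural-RNA split and 0.13 in that with B cell markers, and passed in neither (edgeR adjusted p = 0.136 and 0.618).

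Colec12 (ENSMUSG00000036103.8; 9707595 to 9882644, plus strand) encodes a scavenger receptor with a collagen-like stalk and a C-type lectin head, which binds oxidised lipoprotein, microbes and glycans. It was at 174, 188 and 194 CPM in Zeb1 (+/-) replicates 1, 2 and 3 and at 102, 95.8 and 99.0 CPM in wild-type replicates 1, 2 and 3. Even the lowest Zeb1 (+/-) value stood 72.3 CPM above the highest wild-type value. Its log2 fold change was 0.91 ± 0.07 (SE). The gene is also known in fibroblasts and endothelium, whose markers were near 0 here. The 10 markers of mesothelium and fibroblasts summed to 0.335 to 0.638 CPM in Zeb1 (+/-) and 0.421 to 1.67 CPM in wild-type libraries, with Pdgfra at 0 in all 6. The 5 endothelial markers summed to 2.28 to 2.40 CPM in Zeb1 (+/-) and 2.10 to 3.93 CPM in wild-type, with Cldn5 at 0.

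Npc1 and Osbpl1a both serve cholesterol handling at the late endosome, and they differed in opposite directions. Npc1 (ENSMUSG00000024413.13; 12189692 to 12236400, minus strand) encodes the membrane protein that exports cholesterol from late endosomes and lysosomes. Its level was 64.1, 65.1 and 73.3 CPM in Zeb1 (+/-) and 77.4, 89.7 and 79.4 CPM in wild-type replicates 1, 2 and 3, a log2 fold change of −0.28 ± 0.08 (SE). The gap between the groups was 4.02 CPM, less than the SD within either group (5.07 CPM in Zeb1 (+/-) and 6.61 CPM in wild-type). Npc1 overlaps 3110002H16Rik, a gene now called Rmc1, by 511 exon bases on the opposite strand. That gene averaged 30.2 ± 1.27 CPM in Zeb1 (+/-) and 34.9 ± 1.37 CPM in wild-type (SD, n = 3 each), also lower without passing (edgeR adjusted p = 0.209). Whether the counting used strand is not given in the sources used here, so reads of the shared bases may have gone to either gene.

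Osbpl1a (ENSMUSG00000044252.17; 12755314 to 12941841, minus strand) encodes ORP1, whose long form senses sterol on late endosomes and steers their movement along microtubules. It stood at 13.8, 11.6 and 10.96 CPM in Zeb1 (+/-) and at 9.19, 8.95 and 9.83 CPM in wild-type replicates 1, 2 and 3. The log2 fold change was 0.37 ± 0.11 (SE), and Zeb1 (+/-) replicate 1 was the highest library. In the fit with B cell markers the value was 0.57, and in that with the structural-RNA split it was 0.29.

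Abhd3 (ENSMUSG00000002475.15; 10642092 to 10706771, minus strand) encodes a phospholipase that acts on phosphatidylcholines with medium-length or oxidised chains. It was at 8.15, 7.82 and 5.63 CPM in Zeb1 (+/-) and at 4.18, 4.26 and 3.56 CPM in wild-type replicates 1, 2 and 3. This is a log2 fold change of 0.83 ± 0.17 (SE), and without Zeb1 (+/-) replicate 3, the lowest of its group, it was 0.99. Snrpd1, which encodes a core protein of spliceosomal snRNPs, ends 0.013 kb from Abhd3 in the annotation. Its means were 24.9 ± 1.44 CPM in Zeb1 (+/-) and 20.7 ± 2.73 CPM in wild-type (SD, n = 3 each), which did not pass (edgeR adjusted p = 0.279).

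Lama3 and Svil encode large structural proteins. Lama3 (ENSMUSG00000024421.16; 12333819 to 12583013, plus strand) encodes the alpha 3 chain of laminin-332, a basement membrane protein of epithelia. Its level was 113, 82.7 and 98.7 CPM in Zeb1 (+/-) and 62.5, 74.9 and 80.7 CPM in wild-type replicates 1, 2 and 3. The closest libraries, Zeb1 (+/-) replicate 2 and wild-type replicate 3, were 1.97 CPM apart. The log2 fold change was 0.43 ± 0.13 (SE), against 0.28 in the fit with the structural-RNA split and 0.66 in that with B cell markers.

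Svil (ENSMUSG00000024236.18; 4920540 to 5119299, plus strand) encodes supervillin, a membrane-associated protein that ties actin filaments to myosin II. It is the nearest to Zeb1 of the 10 genes and the sole one before it on the chromosome. It stood at 84.9, 76.9 and 77.9 CPM in Zeb1 (+/-) and at 88.1, 100.4 and 97.9 CPM in wild-type replicates 1, 2 and 3. It had a log2 fold change of −0.26 ± 0.07 (SE), and wild-type replicate 1 lay nearest to the Zeb1 (+/-) values.

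Riok3 (ENSMUSG00000024404.6; 12128741 to 12157387, plus strand) encodes an atypical kinase of the RIO family, which works in maturation of the small ribosomal subunit and in antiviral sensing. It had 136, 142 and 129 CPM in Zeb1 (+/-) and 115, 113 and 124 CPM in wild-type replicates 1, 2 and 3. Its log2 fold change of 0.21 ± 0.07 (SE) was the smallest in size of the 10, and it was 0.13 in the fit with the structural-RNA split and 0.34 in that with B cell markers. Psma8 (ENSMUSG00000036743.3; 14706151 to 14762301, plus strand) encodes an alpha-type proteasome subunit known from testis. It had 2.62, 2.67 and 2.62 CPM in Zeb1 (+/-) and 1.32, 1.63 and 1.38 CPM in wild-type replicates 1, 2 and 3, from 47, 113 and 86 counts in Zeb1 (+/-) and 44, 46 and 26 counts in wild-type. This gave a log2 fold change of 0.87 ± 0.18 (SE), from the lowest level of the 10 genes. None of the 50-base stretches of its transcripts occurs in transcripts of another gene. That share was also 0% for Cables1, Abhd3, Svil, Lama3 and Osbpl1a, and at most 4.09% (Riok3) in the remaining 4.

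Set against transcript length, the order of levels differed between the genotypes. Length here is that of the longest annotated coding transcript, and the scale is CPM per kilobase. In Zeb1 (+/-) libraries the order was Riok3 (35.8), Colec12 (23.1), Npc1 (12.9), Svil (10.1), Lama3 (9.31), Cables1 (7.44), Rbbp8 (4.98), Abhd3 (3.67), Osbpl1a (3.06) and Psma8 (1.56), all as mean CPM per kilobase. In wild-type libraries it was Riok3 (31.0), Npc1 (15.7), Colec12 (12.3), Svil (12.1), Lama3 (6.89), Rbbp8 (6.44), Osbpl1a (2.36), Cables1 (2.27), Abhd3 (2.04) and Psma8 (0.854). Neighbours in this order whose libraries overlapped were Svil with Lama3 and Abhd3 with Osbpl1a in Zeb1 (+/-). In wild-type they were Colec12 with Svil, Lama3 with Rbbp8, Osbpl1a with Cables1, and Cables1 with Abhd3. Cables1 was thus within the spread of Osbpl1a and Abhd3 in wild-type macrophages and clear of both in Zeb1 (+/-) macrophages. Of all 12940 tested genes, 31.3% had a lower wild-type CPM than Cables1, 86.2% a lower one than Colec12 and 13.4% a lower one than Psma8.

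**Figure D2:**
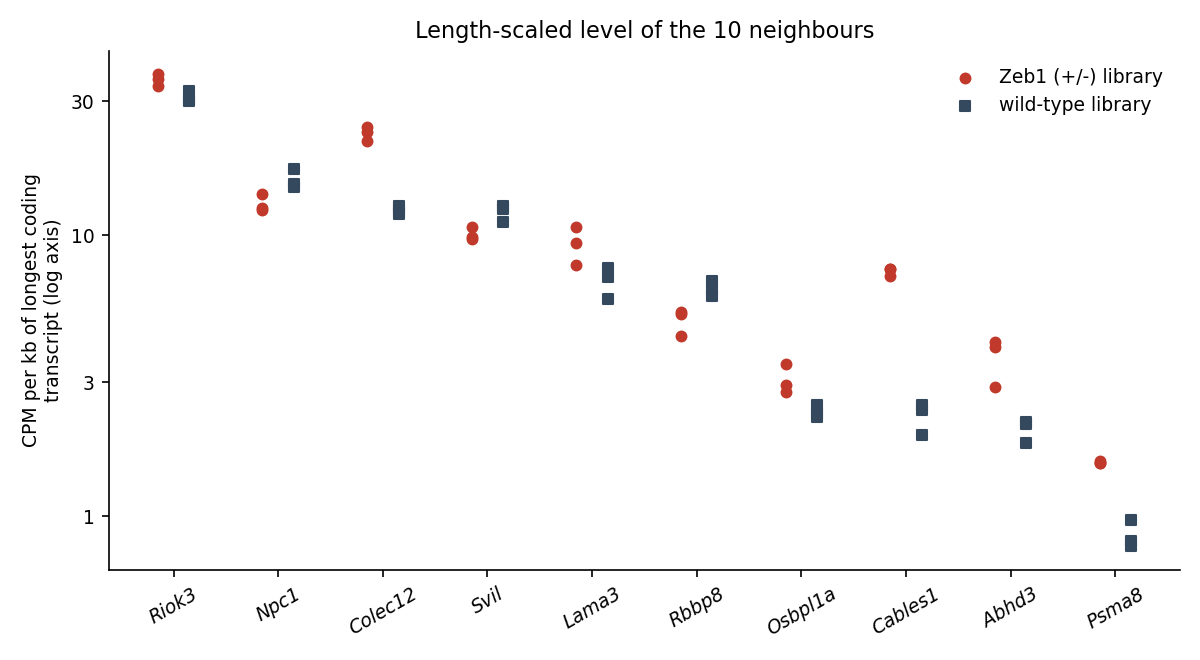
Level of the 10 neighbours in CPM per kilobase of their longest coding transcript, on a log axis, ordered by wild-type mean; circles are Zeb1 (+/-) libraries and squares wild-type libraries. Cables1 stands level with Osbpl1a and Abhd3 in wild-type (2.27 against 2.36 and 2.04 on average) and above them in Zeb1 (+/-) (7.44 against 3.06 and 3.67).

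The 10 genes were not spread over the whole window. Zeb1 lies near the start of the chromosome, and the 10 lie within 0.473 Mb (Svil) to 8.93 Mb (Psma8) of it. Colec12 and Abhd3 lie 3.93 and 4.87 Mb away, and the 6 genes from Rbbp8 to Osbpl1a follow between 5.86 and 6.98 Mb. Higher and lower genes alternate along this run: Rbbp8 stood lower, Cables1 and Riok3 higher, Npc1 lower, and Lama3 and Osbpl1a higher. From 10 to 15 Mb away only 2 genes of 29 in the table had enough counts to be tested.

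**Figure D3:**
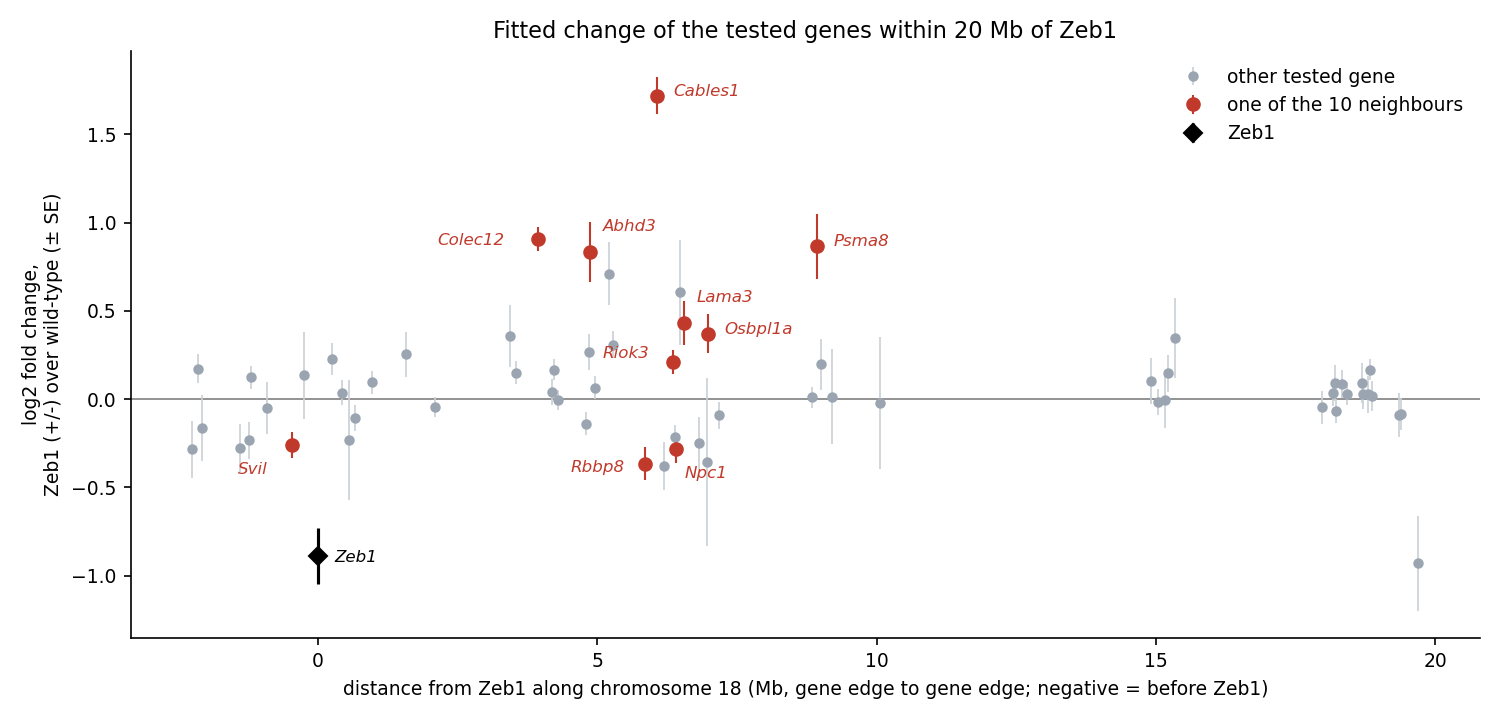
Fitted log2 fold change (± SE), Zeb1 (+/-) over wild-type, of Zeb1 and the 64 tested genes within 20 Mb, against distance from Zeb1 in Mb between gene edges. The 10 neighbours lie between 0.473 Mb before and 8.93 Mb after Zeb1, with Cables1 at 1.72 and Rbbp8 at −0.36 as the extremes among them, and most genes beyond 15 Mb lie close to 0, apart from Celf4 (−0.93).

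Position alone, without the choice of the 10, gives a wider view of the window, although its width was set with earlier results known. Of the 64 tested genes within 20 Mb, 2 were called higher (Cables1 and Colec12) and 0 lower by the edgeR quasi-likelihood test. Over all 12940 tested genes that test called 20 higher and 56 lower. In the window 20 genes had an unadjusted edgeR p under 0.05 (31.3%, against 14.6% of all tested genes). DESeq2 called 5 of the 64 higher and 0 lower, with Abhd3, Lama3 and Gata6 beside the first 2. Over all 12940 genes DESeq2 called 109 higher and 242 lower. The median log2 fold change of the 64 was 0.03, beside −0.000384 over all tested genes, with 38 of 64 above 0. Groups did not overlap in 28 of the 64 genes (43.8%, against 19.9% of all tested genes). Within 5 Mb of Zeb1 this held for 13 of 26 genes (50%), 3 of them chosen genes. From 5 to 10 Mb it held for 11 of 18 (61.1%), 7 of them chosen, so the choice raised both shares. Between 10 and 20 Mb it held for 4 of 20 genes (20%), and on the rest of chromosome 18 for 53 of 251 (21.1%). Without the 10 chosen genes it held for 14 of 34 within 10 Mb (41.2%), 9 of them higher and 5 lower, and for 18 of 54 within 20 Mb (33.3%). All 10 chosen genes are among the 20 with an unadjusted p under 0.05, and without them 10 of 54 remained (18.5%).

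The differences were also larger in size within 10 Mb of Zeb1, where the 10 chosen genes all lie, than beyond it. The median size of the log2 fold change, whatever its sign, was 0.17 within 5 Mb (3 of 26 genes chosen). It was 0.33 from 5 to 10 Mb (7 of 18 chosen), 0.07 from 10 to 20 Mb and 0.13 on the rest of chromosome 18. Over all tested genes it was 0.11. Within 10 Mb it was 0.23 with the 10 chosen genes and 0.17 over the 34 others, so the choice raised it. On the rest of chromosome 18 the test called 0 genes higher and 1 lower. Genes near each other can share regulation and DNA, so they are not independent replicates, and no test of these shares was made.

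**Figure D4:**
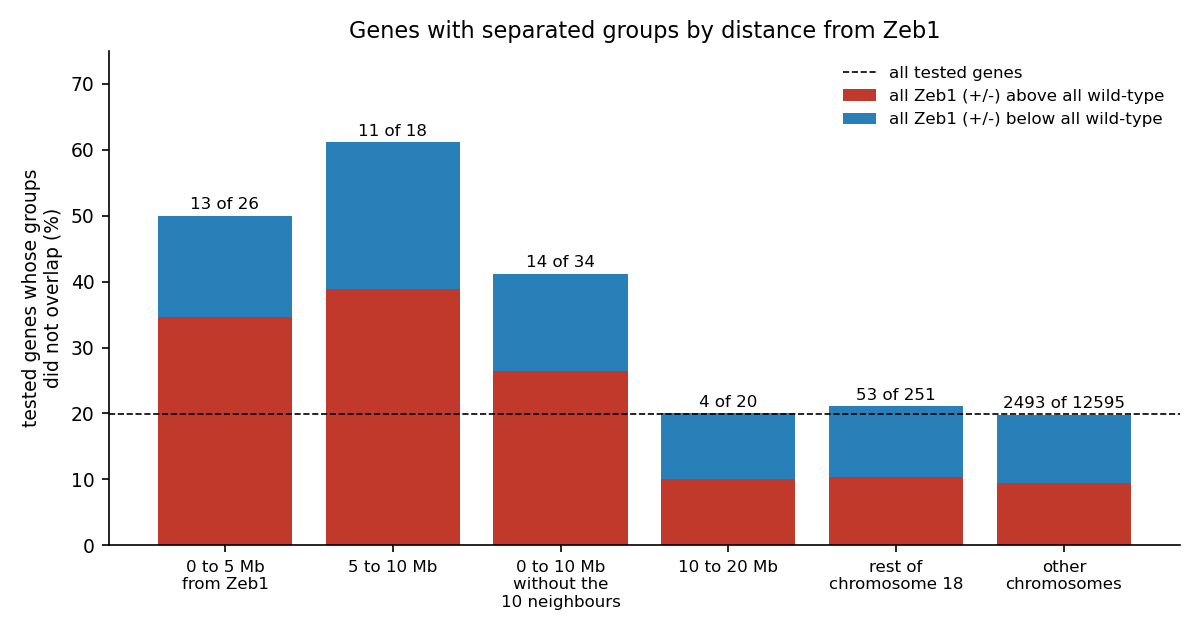
Share of tested genes whose 3 Zeb1 (+/-) values all lay above (red) or all below (blue) the 3 wild-type values, by distance from Zeb1, with the number of genes over each bar; the dashed line is the share over all tested genes, 19.9%. The share is 50% and 61.1% in the first 2 distance classes, which hold 3 and 7 of the 10 chosen genes. It is 41.2% within 10 Mb without the 10 chosen genes, and 20% from 10 to 20 Mb.

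Genes that flank the 10 did not all share their direction. Tmem241, 18.8 kb beyond Cables1 and 7.20 kb before Riok3, averaged 5.40 ± 0.692 CPM in Zeb1 (+/-) and 7.02 ± 0.483 CPM in wild-type (SD, n = 3 each), with separate groups and a log2 fold change of −0.38 (−0.22 in the fit with B cell markers). It thus stood lower between 2 genes that stood higher, without passing (edgeR adjusted p = 0.263). On the far side of Riok3, 3110002H16Rik had −0.21. Beside Colec12, the cyclin gene Ccny and the mRNA export gene Thoc1 had log2 fold changes of 0.15 and 0.04. Beside Abhd3 and Psma8, the ubiquitin ligase gene Mib1, the chromatin remodelling gene Ss18 and the TFIID subunit gene Taf4b had 0.06, 0.01 and 0.20. Around Lama3 and Osbpl1a, Ankrd29, Ttc39c, Cabyr and Impact had 0.61, −0.25, −0.36 and −0.09, all with overlapping groups.

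The genes nearest to Zeb1 itself had overlapping groups. Zfp438, a zinc-finger gene 257 kb before Zeb1 that also flanks Svil, averaged 3.45 ± 1.28 CPM in Zeb1 (+/-) and 3.06 ± 0.272 CPM in wild-type. Arhgap12, 249 kb after it, averaged 217 ± 26.3 CPM in Zeb1 (+/-) and 185 ± 4.05 CPM in wild-type (SD, n = 3 each). Neither passed (edgeR adjusted p = 0.833 and 0.293). The next tested gene on the other side of Svil, 9430020K01Rik, had a log2 fold change of −0.05. The largest differences outside the 10, at 2 CPM or more in either genotype, were those of 1010001N08Rik (0.71), Tmem241 (−0.38), Fzd8, a Wnt receptor gene (0.36), and Gata6 (0.31). The gene 1010001N08Rik averaged 4.13 ± 0.659 CPM in Zeb1 (+/-) and 2.53 ± 0.268 CPM in wild-type (SD, n = 3 each), and its edgeR adjusted p was 0.132.

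Of the tested functional relatives of the 10 on other chromosomes, Mrc1 and Itgb1 were called. Over all tested genes 0.587% were called, so a short list without a call says little about its genes. Of 12 tested genes around Cables1, its paralogue and the kinases, cyclins and p53 family members it is known to meet, none was called (median log2 fold change −0.11, 1 at an unadjusted p under 0.05). Abl1, the one with the highest level, had −0.15. Of 10 tested scavenger and lectin-type receptors related to Colec12, 1 fell and none rose, with a median of 0.01, and 5 had an unadjusted p under 0.05, as did 14.6% of all tested genes. The one that fell was Mrc1, the mannose receptor, at 111 ± 7.83 CPM in Zeb1 (+/-) and 218 ± 20.6 CPM in wild-type (SD, n = 3 each), a log2 fold change of −0.97 (edgeR adjusted p = 0.00347). It did not pass in the fit with B cell markers (−0.84, edgeR adjusted p = 0.0981). Cd5l, the most abundant of that list, had 0.32 without passing, against 0.91 for Colec12. Groups were separate in 5 of these 10 listed genes, with Mrc1, Cd163 and Marco lower and Cd5l and Scarb1 higher. Cd163, Marco and Scarb1 were named after their values were seen. They had −1.23, −0.84 and 0.21, also without passing (edgeR adjusted p = 0.0988, 0.134 and 0.226).

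Of 22 tested genes of late endosomal cholesterol handling related to Npc1 and Osbpl1a, none was called. Their median was −0.02 (range −0.53 to 0.32), with 5 at an unadjusted p under 0.05. Lamp1, a lysosomal membrane glycoprotein gene and the most abundant of them, had 0.01. None of 15 tested ABHD family genes was called (median −0.00363, 0 at an unadjusted p under 0.05), with Abhd12 at −0.00363, against 0.83 for Abhd3. None of 13 genes of DNA end resection and repair was called (median 0.09, 1 at an unadjusted p under 0.05), with Rb1, the retinoblastoma gene, at −0.07. The 7 common alpha subunits of the proteasome had a median of 0.10 and none was called (1 at an unadjusted p under 0.05). The most abundant of them, Psma7, had 0.10, against 0.87 for Psma8. None of 4 tested gelsolin and villin family genes was called (median −0.01, range −0.55 to 0.32, 1 at an unadjusted p under 0.05). Capg, the most abundant of them, had 0.03. None of 6 tested genes of small-subunit maturation was called (median 0.12, 2 at an unadjusted p under 0.05), with Tsr1 at 0.16. Over all tested genes 14.6% had an unadjusted p under 0.05.

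Among the 7 tested laminin chains and laminin receptors, 1 rose and none fell, with a median of 0.35, and 4 had an unadjusted p under 0.05. The one that rose was Itgb1, the integrin beta 1 chain, a receptor subunit for laminins among other ligands. It stood at 1724 ± 69.9 CPM in Zeb1 (+/-) and at 1298 ± 16.8 CPM in wild-type (SD, n = 3 each), a log2 fold change of 0.41 (edgeR adjusted p = 0.0328). That call was lost in 5 of the 6 fits with 1 library left out (0.38 to 0.44), holding only without Zeb1 (+/-) replicate 3, and it was also lost with the replicate block (0.41), the structural-RNA split (0.42) and the B cell markers (0.41), with edgeR adjusted p = 0.188, 0.205 and 0.194. Itga6, its partner chain for laminins, had 0.35 without passing (edgeR adjusted p = 0.0689). Lama3 had 0.43.

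By likeness of log2 CPM over the 6 libraries, the genes nearest to Cables1 were Tmem107 on chromosome 11, Asph on chromosome 4 and Rap2c on chromosome X, with Pearson r of 0.995, 0.993 and 0.991. The genes nearest to Colec12 were Elac2 on chromosome 11, Rap2c and Dus4l on chromosome 12, with r of 0.993, 0.989 and 0.989. These values describe libraries that fall into 2 genotypes, so any gene with tight and separate groups scores high. Chromosome 18 holds 316 of the 12940 tested genes, so it says little that none of these like genes lies there. Their own log2 fold changes were 0.56, 0.50 and 0.14 for Tmem107, Asph and Rap2c, and 0.22 and 0.28 for Elac2 and Dus4l, all smaller than those of the gene they resemble.

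The differences of Cables1 and Colec12 varied little with the settings. With 1 library left out the log2 fold change lay between 1.61 and 1.80 for Cables1 and between 0.88 and 0.96 for Colec12, and both remained past the threshold in all 6 fits. They also passed in the fit with the structural-RNA split (1.64 and 0.91). Both genes were chosen from this contrast and these fits reuse its libraries, so the repeated passes add no support. In the fit with B cell markers neither passed, although the values were 1.77 and 0.87 (edgeR adjusted p = 0.058 and 0.0645). The SE of Cables1 rose from 0.10 to 0.18 in that fit. There 0 of all 12940 genes passed by edgeR, while 1882 had an unadjusted p under 0.05. The part of B cell RNA and of the structural-RNA split in these differences was not tested. The direction of each of the 10 genes held in all 13 settings, which separate groups all but fix when 1 library is left out.

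**Figure D5:**
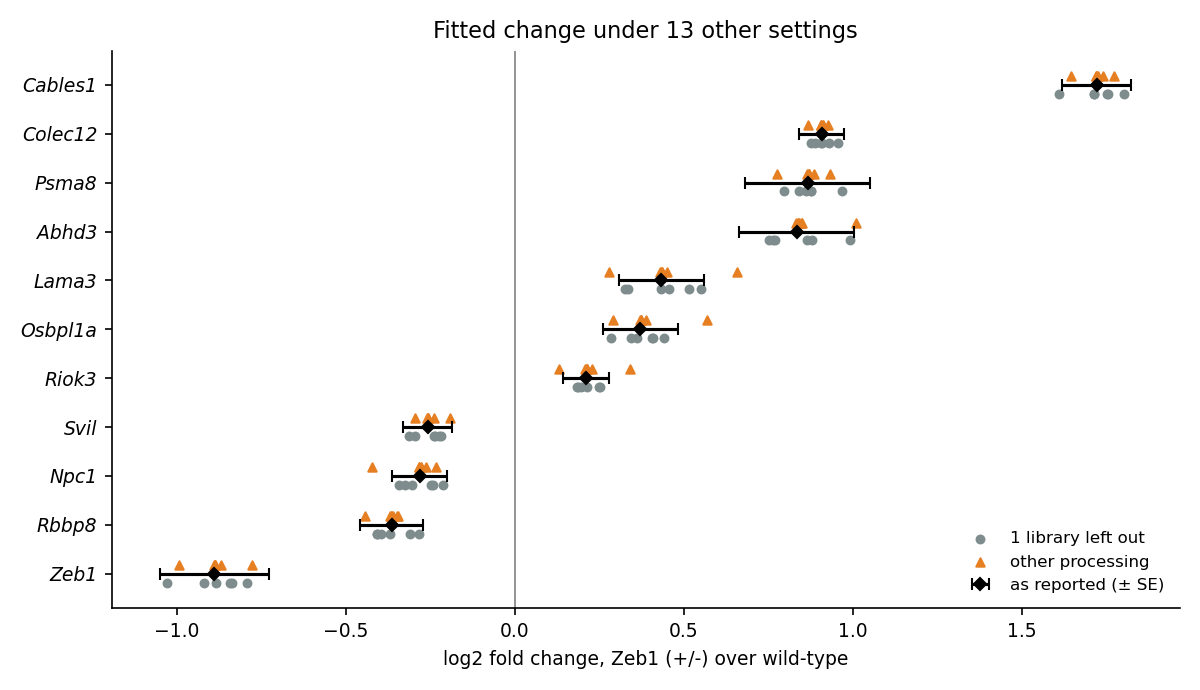
Log2 fold change, Zeb1 (+/-) over wild-type, of Zeb1 and its 10 neighbours as reported (diamonds, ± SE), with 1 library left out (grey circles) and under other processing (orange triangles). No point crosses 0, and the widest ranges relative to the value are those of Lama3 (0.28 to 0.66) and Riok3 (0.13 to 0.34).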

How the data were processed

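RNA of sorted peritoneal macrophages was sequenced from libraries made with a stranded mRNA kit, per the labels. The deposited table holds expected counts per gene, which the authors made with STAR, RSEM and edgeR on GRCm38, per the submitters' processing notes, without versions or roles. All values were whole numbers, so they entered the tests as deposited. Columns were mapped by the identifier in each sample's description, and 0 were left unmapped. Coordinates, transcript lengths and shared 50-base stretches came from GENCODE M21 (GRCm38), which held 99.3% of the table's gene identifiers (version ignored).

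In R 4.3.3, edgeR 4.0.16 kept 12940 genes by filterByExpr (minimum count 10, minimum total 15), scaled by TMM (0.976 to 1.01), and tested genotype by quasi-likelihood with Benjamini-Hochberg adjustment at 0.05. SE is the log2 fold change divided by the square root of F. The replicate number is not in the model. Intervals cover pools of 2 mice, not single animals. The script was tested on simulated data. Alternatives were RLE scaling, other filters, a replicate block, DESeq2 1.42.0, the structural-RNA split, a B cell covariate (mean log2 CPM of 9 tested markers), leaving out each library, and a 10 Mb window. Named genes are the 10, their flanking tested coding genes, the 4 other window genes with the largest differences at 2 CPM or more, 1 relative per list or those past the threshold, and the 3 genes most like Cables1 and Colec12. The members, lists and alternatives were chosen with earlier results of these data known.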

Additional observations from a re-analysis of the deposited data

How the results depend on the processing

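As reported, 20 genes were higher and 56 lower in Zeb1 (+/-), and 2 and 0 of those within 20 Mb of Zeb1. Without a low-count filter 207 were higher and 315 lower, with 7 higher in the window, and with DESeq2 109 and 242, with 5 in the window. With the replicate block 6 and 9 passed, with the structural-RNA split 4 and 27, and with the B cell covariate 0 and 0, with 0 in the window (1882 of all genes at an unadjusted p under 0.05). With 1 library left out, 4 (without wild-type replicate 2) to 36 (without Zeb1 (+/-) replicate 3) were higher and 1 to 91 lower, with the same 2 libraries at the ends. The window then held 2 or 3 higher and 0 lower, and its median ran from 0.03 to 0.07. The causes were not tested. The labels do not say that the shared replicate numbers pair the libraries. Correlations of same-numbered deviations from the group means were −0.25, −0.03 and −0.17, which cannot settle this with 3 libraries per group. The block changed no call among the 10 genes. Of 584 comparisons of single genes with another setting, 530 kept their direction and side of the threshold, 16 gained a call, 16 lost one and 22 changed sign, none of these 22 in the 10 genes or Zeb1. Abhd3 and Lama3 passed with DESeq2 and, with Psma8, without the filter, and Abhd3 also without Zeb1 (+/-) replicate 3. Zeb1 passed in these 2 settings and without wild-type replicate 1 (−1.03). With the structural-RNA split Zfp438 was −0.00356, Thoc1 −0.0807 and 9430020K01Rik 0.15. With the B cell covariate Mib1 was −0.00412, Ss18 −0.0446, Cabyr 0.78 (−0.36 as reported), Impact 0.0806, Lamp1 −0.0453, Abhd12 0.15, Rb1 0.0755 and Capg −0.0694. Without the filter Abhd12 was 0.0137. With 1 library left out the ranges were −0.162 to 0.326 for Zfp438, −0.134 to 0.0970 for 9430020K01Rik, −0.00935 to 0.0333 for Ss18, −0.0197 to 0.0505 for Lamp1, −0.0466 to 0.0469 for Abhd12 and −0.00170 to 0.0613 for Capg. Psma8 rests on 26 to 113 counts a library, the fewest of the 10.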
